A study of Mus musculus with 6 samples.

Results

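*Rasgrp1*, *Camta1*, *Chit1* and *Slco3a1* are the 4 genes that the study lists as negatively regulated targets of SOX4 and SOX11, that is, genes whose expression is higher when these SoxC transcription factors are lost. They were followed here across 3 knockout genotypes of cultured mouse keratinocytes. All non-control probes whose accession maps to these genes were taken, which gave 6 of 55681 probes and 4 of 21368 named genes. *Camta1* and *Slco3a1* had 2 probes each, and *Rasgrp1* and *Chit1* had 1. A further probe, A_55_P2110086, is named *Rasgrp1* by the study and was kept apart, since the files give it an Ensembl transcript in place of a RefSeq accession.

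The cells were primary keratinocytes of newborn 129SvEx:C57BL/6 mice in which *Sox4* (Sox4 cKO), *Sox11* (Sox11 cKO) or both (Sox4/11 dcKO, here dcKO) had been deleted. Wild-type keratinocytes were the control, and no treatment was applied. Deletion used a Cre driven by the *Krt14* promoter, which is active in basal keratinocytes, and the floxed mice were bred on a *Sox12*-/- background crossed to an FVB/N Cre line. Whether the cultured cells carried the *Sox12* allele is not given in the sources used here, and pups of both sexes were used. The cells had been grown on J2 feeder fibroblasts and then passaged without them. Each of 6 arrays was hybridised in 2 colours and held knockout RNA in one channel and wild-type RNA in the other, with 2 arrays per genotype and the dyes exchanged between them. Nothing in the labels says that the wild-type RNA came from separate cultures, so p-values measure the spread between these samples, which may be partly technical.

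SoxC factors are transcription factors of embryonic tissues that are low in adult skin, and *Sox4* and *Sox11* are known for overlapping roles. RASGRP1 is an exchange factor that loads RAS with GTP when diacylglycerol and calcium rise, and it is best known from T cells, with a described role in epidermal tumours. CAMTA1 is a calmodulin-binding transcription activator known from neurons. CHIT1 is the chitinase secreted by activated macrophages, and SLCO3A1 is an organic anion transporter of the plasma membrane that carries prostaglandins and other substrates.

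The genes were chosen by the study in part on their higher ratios on these dcKO arrays. Their dcKO values are therefore given as a description without a test. The study also looked for genes changed solely in the dcKO, so a missing call in a single knockout is not independent of the choice either. Log2 ratios are knockout over wild type, and a call means a limma adjusted p below 0.05 with an absolute log2 ratio above 1.5.

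RefSeq promoter windows, which run from 250 bases before to 50 after the gene start, were held for *Rasgrp1*, *Camta1* and *Chit1* (build GRCm38.p6), and none was found for *Slco3a1*. They are shown because the genes were chosen in part for SOX4 or SOX11 binding. The letters ACAAAG, the core that SOX proteins are known to bind, were searched on both strands and were found once in each of the 3 windows. In all 32851 windows, 18.7% held them. The stretches around the match follow, 5′ to 3′ on the gene's strand, with the match in capitals.
Rasgrp1, chr2:117342852-117342881, minus strand: cgctcgcacaaaCTTTGTgcctgcgggtga
Camta1, chr4:151861975-151862004, minus strand: tccactaggaagCTTTGTttaggtctggag
Chit1, chr1:134111103-134111132, plus strand: tgtctcataaaaACAAAGccaaactgtggt

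The *Rasgrp1* match began 9 bases into the transcript, and those of *Camta1* and *Chit1* began at positions -224 and -127 from the start. In *Rasgrp1* and *Camta1* the letters ACAAAG lie on the strand opposite to the gene, so the match reads CTTTGT on the gene's strand, as printed. The related letters ACAATG, present in 12.6% of all windows, were in none of the 3. The AP-1 letters TGANTCA, found in 7.81% of windows, occurred once, in *Chit1*, at position -52 from the start: tgtaggaagaagTGAGTCActgtagtggtg (chr1:134111178-134111207, plus strand). These matches are letters in a window and do not show binding.

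The targeted genes were first checked against the labels. *Sox4* was lower in Sox4 cKO and dcKO cells by log2 ratios of -2.52 and -2.52, and *Sox11* was lower in Sox11 cKO and dcKO cells by -2.98 and -3.43, all 4 called. *Sox12* was well above background on no dcKO array. All 6 basal keratinocyte markers, *Krt5* and *Krt14* among them, were well above background on every array. Over the arrays, the share of probes well above background ran from 35.1% to 42.8% in knockout RNA and from 37.3% to 45% in wild-type RNA.

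**Figure D1:**
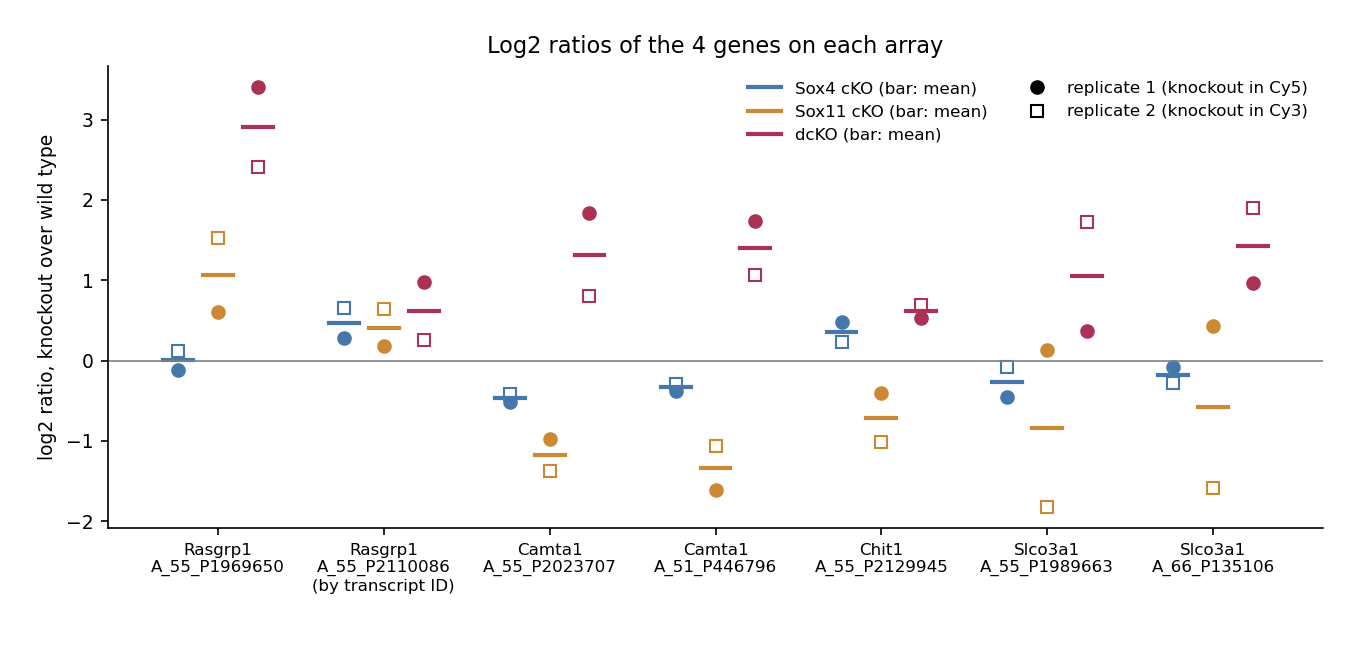
Log2 ratio of knockout over wild type (y axis) for each probe of the 4 genes on each of the 6 arrays, with filled circles for replicate 1, open squares for replicate 2 and bars for the mean of 2 arrays. All 7 probes lie above 0 on both dcKO arrays, the *Rasgrp1* probe A_55_P1969650 is also above 0 on both Sox11 cKO arrays, and both *Camta1* probes lie below 0 on all 4 single-knockout arrays.

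Over the brightest probe of each gene, the median log2 ratio was 1.18 in dcKO cells. It was -0.78 in Sox11 cKO and -0.13 in Sox4 cKO cells. Over all probes these medians were -0.0035 in dcKO, -0.0017 in Sox11 cKO and 0.0015 in Sox4 cKO. All 6 probes were above 0 on both dcKO arrays, as were 27.5% of all probes, a direction fixed by the choice of genes. In dcKO cells 1 of the 4 genes, *Rasgrp1*, had a mean ratio above 1.5, a count by fold alone. Ratios of 1.43 or more, the value of *Slco3a1* probe A_66_P135106, were held by 0.503% of all probes. With the adjusted p required as well, 0.756% of all probes were called in either direction in that comparison and 0.312% were called higher. In Sox4 cKO and Sox11 cKO cells 0 of the 6 probes were called in either direction, beside 0.14% and 0.0862% of all probes. At an unadjusted p below 0.05, 0 of the 6 passed in Sox4 cKO cells, while 4 of them did in Sox11 cKO, beside 7.4% and 6.84% of all probes. Of these 4, the *Rasgrp1* probe was higher and both *Camta1* probes and the *Chit1* probe were lower in Sox11 cKO cells. Between the single knockouts 0 of the 6 were called, beside 0.0108% of all probes, and 4 had an unadjusted p below 0.05, beside 6.35%. The levels in each channel, described next, differed between the 4 genes. Whether a dcKO ratio arose in the knockout or in the wild-type channel was not tested.

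**Figure D2:**
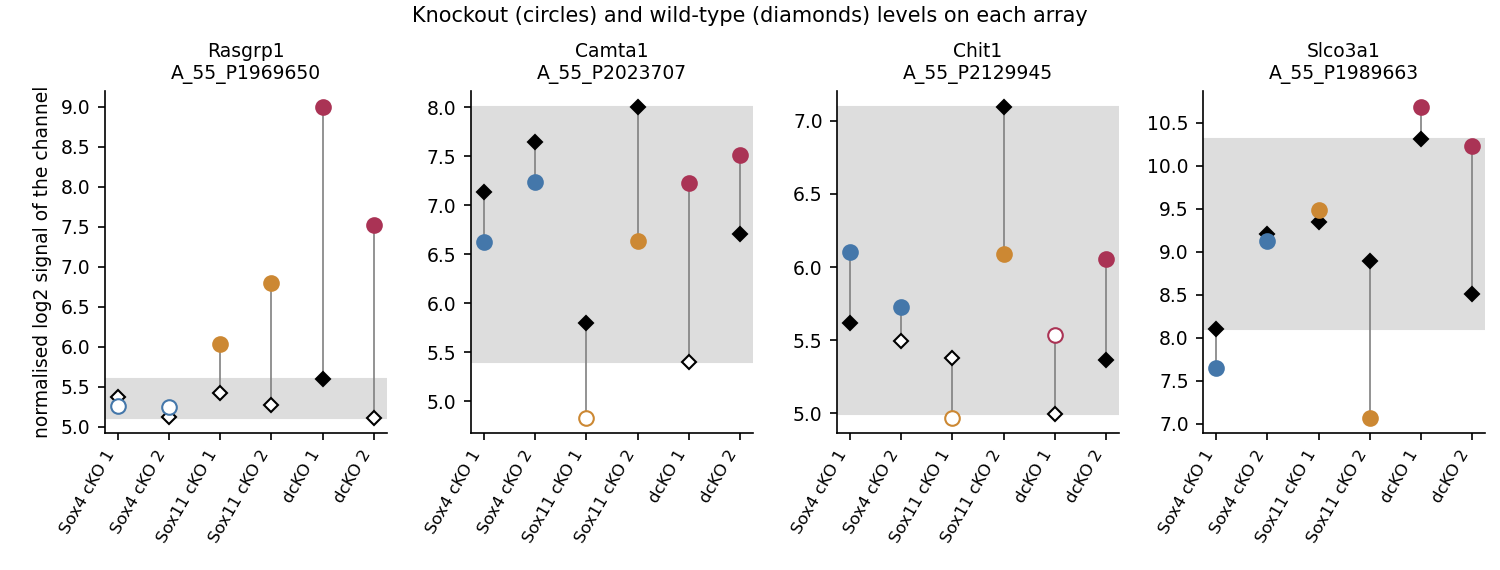
Normalised log2 signal (y axis) of the knockout channel (circles) and the wild-type channel (diamonds) on each array for the brightest probe of each gene, with open symbols where the signal was not well above background and a grey band over the range of the 6 wild-type channels. In *Rasgrp1* the wild-type channels, most of them not well above background, lie in a narrow band and the dcKO channels far above it. In *Camta1* and *Chit1* both dcKO levels lie inside the wild-type range.

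*Rasgrp1* had the largest dcKO ratio of the 4 genes. The normalised signal of probe A_55_P1969650 was 513 and 184 in the 2 dcKO channels and 48.4 and 34.6 in the wild-type channels beside them, and the latter was well above background on 1 of the 2 arrays. The log2 ratios were 3.41 and 2.41, with a mean of 2.91 ± 0.71 (SD, n = 2), which is 7.50-fold. From the top, this was rank 35 of 55681 probes. Across the 6 arrays the wild-type log2 level lay between 5.11 and 5.60 with an SD of 0.19. No wild-type channel beside the single knockouts was well above background, so this narrow range does not show steady expression. The dcKO ratio was 2.16 with an offset of 50 and 4.56 with processed signals. On the log2 scale the mean dcKO level was 2.97 above the mean of the 4 wild-type channels of the other genotypes, while the wild-type level beside it was 0.062 away from them.

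*Rasgrp1* was also above 0 on both Sox11 cKO arrays, as were 22.2% of all probes. The signal was 65.3 and 111 in the Sox11 cKO channels, well above background on both, and 42.8 and 38.5 in wild type, well above background on neither. Both Sox11 cKO levels, like both dcKO levels, lay above all 6 wild-type levels, which 2.49% of all probes did in Sox11 cKO and 4.46% in dcKO. The log2 ratios of 0.61 and 1.53 gave a mean of 1.07 ± 0.65 (SD, n = 2), with a 95% interval of 0.39 to 1.75. Because the wild-type channels were dim, the corresponding 2.10-fold was computed as a bound. The floor was the probe's own signal here, so this equals the fitted fold, carries the same interval and is not a lower limit. The limma adjusted p was 0.387, so the gene was not called. Without Sox11 cKO replicate 1 the fitted ratio was 1.72 with an adjusted p of 0.024, and without Sox11 cKO replicate 2 it was 0.42. Each of these is adjusted for dye and rests on 1 array, which is assumed to vary like those of the other genotypes.

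In Sox4 cKO cells *Rasgrp1* was well above background in no channel. The ratios were -0.11 and 0.13, with a mean of 0.0068 ± 0.17 (SD, n = 2; limma adjusted p = 0.998). The Sox11 cKO ratio exceeded the Sox4 cKO ratio by 1.06, with a 95% interval of 0.10 to 2.02 and a limma adjusted p of 0.749 over all probes. In order, the *Rasgrp1* ratio was highest in dcKO, then Sox11 cKO, then Sox4 cKO. The step from dcKO to Sox11 cKO was 1.84 and was not tested, because the dcKO values chose the gene.

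The further *Rasgrp1* probe gave much smaller ratios. A_55_P2110086 was above background in 1 of the 2 dcKO channels and in no wild-type channel. Its log2 ratios were 0.98 and 0.26 in dcKO cells, then 0.18 and 0.64 in Sox11 cKO and 0.28 and 0.66 in Sox4 cKO cells. All 6 values were above 0, and the 3 genotype means of 0.62, 0.41 and 0.47 lay closer together than the 2 dcKO arrays did. Sox11 cKO and Sox4 cKO did not differ detectably with this probe (limma adjusted p = 0.995), and the differences from dcKO were not tested.

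**Figure D3:**
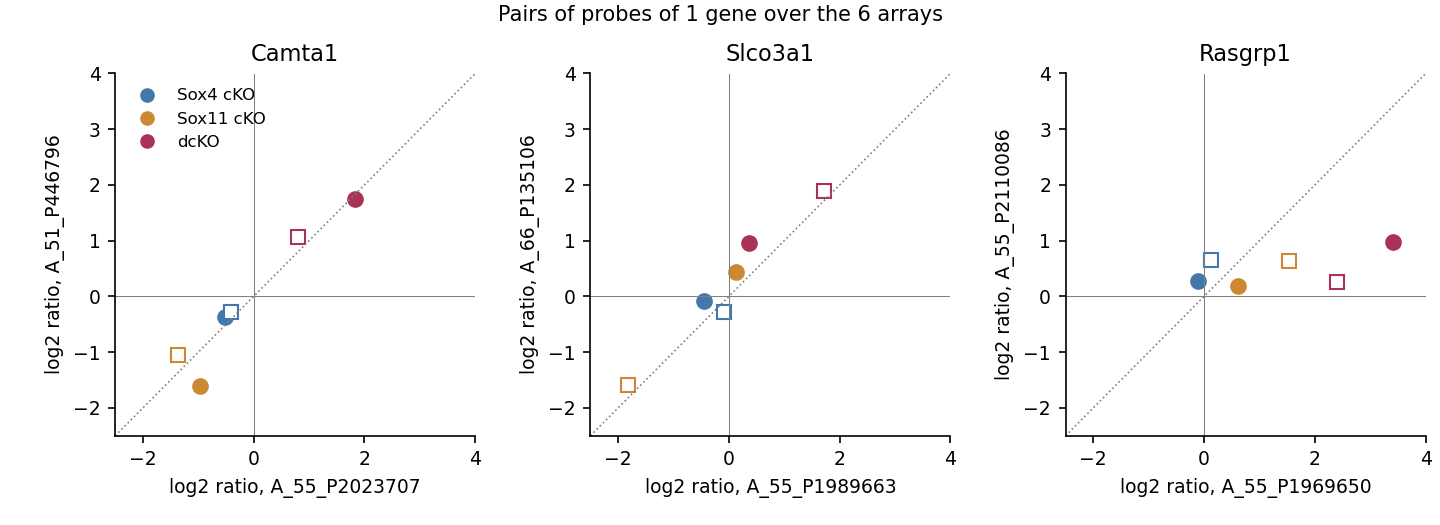
Log2 ratio of one probe against that of another probe of the same gene on the 6 arrays, coloured by genotype, with filled circles for replicate 1, open squares for replicate 2 and a dotted line where both are equal. The *Camta1* and *Slco3a1* pairs follow the line, whereas the dim *Rasgrp1* probe A_55_P2110086 stays below 1 where A_55_P1969650 reaches 3.41.

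*Camta1* ratios were positive in dcKO and negative in both single knockouts, where 24.5% (Sox4 cKO) and 22.2% (Sox11 cKO) of all probes were below 0 on both arrays. For probe A_55_P2023707 the log2 ratios were 1.83 and 0.81 in dcKO, with a mean of 1.32 ± 0.72 (SD, n = 2). In Sox4 cKO cells they were -0.52 and -0.41, with a mean of -0.46 ± 0.07 (SD, n = 2; limma adjusted p = 0.684). In Sox11 cKO cells they were -0.97 and -1.37, with a mean of -1.17 ± 0.28 (SD, n = 2; limma adjusted p = 0.140). Neither single knockout was called, and the 95% interval in Sox11 cKO cells ran from -1.65 to -0.69. The other probe, A_51_P446796, gave a mean of 1.40 in dcKO, while Sox11 cKO was at -1.34 and Sox4 cKO at -0.33, so the probes matched in sign on all 6 arrays. Its Sox11 cKO ratio had a limma adjusted p of 0.114. Between the single knockouts the probes differed by -0.71 and -1.0 (Sox11 cKO minus Sox4 cKO), with limma adjusted p of 0.768 and 0.597.

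The wild-type channels of *Camta1* varied widely. At probe A_55_P2023707 the wild-type signal was 42.2 and 104 beside dcKO, 141 and 200.5 beside Sox4 cKO and 55.8 and 257 beside Sox11 cKO, an SD of 1.02 on the log2 scale. The channel at 42.2, the denominator of the dcKO ratio of 1.83, was not well above background. The dcKO signal was 150.2 and 182, below the highest wild-type value. Both dcKO levels therefore lay inside the wild-type range. The mean wild-type log2 level beside dcKO was 1.1 below that of the other 4 wild-type channels, and the mean dcKO level was 0.22 above it. At A_51_P446796 these distances were 1.16 and 0.25. The Sox11 cKO levels, at 28.5 and 99.4, were 0.99 below the other wild-type channels on average on the log2 scale. The level of 28.5, on array 1, was not well above background, nor was that of 24.3 at A_51_P446796. The Sox11 cKO ratios of both probes on array 1 therefore rest on a dim channel.

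*Chit1* was dim throughout. Probe A_55_P2129945 had a dcKO signal of 46.3 and 66.5 against 32 and 41.2 in wild type, and on the first array neither channel was well above background. The log2 ratios of 0.54 and 0.69 had a mean of 0.61 ± 0.11 (SD, n = 2), the closest pair of dcKO arrays among the brightest probes. Both dcKO levels lay within the range of the 6 wild-type channels, from 5.0 to 7.10 on the log2 scale. Without the highest of these channels, on Sox11 cKO array 2, the second dcKO level would have been above all the others.

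In the single knockouts *Chit1* went to both sides. Its ratios were 0.49 and 0.23 in Sox4 cKO cells, with a mean of 0.36 ± 0.18 (SD, n = 2; limma adjusted p = 0.714). In Sox11 cKO cells they were -0.41 and -1.01, with a mean of -0.71 ± 0.42 (SD, n = 2; limma adjusted p = 0.309). The difference, Sox11 cKO minus Sox4 cKO, was -1.07 with a 95% interval of -1.63 to -0.50 and a limma adjusted p of 0.356 over all probes. None of these comparisons was called.

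*Slco3a1* was the brightest of the 4 genes and the one whose arrays differed most. Probe A_55_P1989663 had a dcKO signal of 1650 and 1207 and a wild-type signal of 1274 and 366 beside it. The log2 ratios were 0.37 and 1.72, with a mean of 1.05 ± 0.95 (SD, n = 2). Without dcKO replicate 2 the fitted ratio was -0.025, and without dcKO replicate 1 it was 2.12. Both are adjusted for a dye term from the other genotypes, whereas the arrays that remained read 0.37 and 1.72. Probe A_66_P135106, which has the accession of another transcript, gave 0.97 and 1.90, with a mean of 1.43 ± 0.66 (SD, n = 2), and both of its dcKO levels lay above all 6 wild-type levels.

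The Sox11 cKO arrays disagreed for both *Slco3a1* probes. A_55_P1989663 gave 0.13 and -1.82 and A_66_P135106 gave 0.43 and -1.59, so each probe was near 0 or above it on array 1 and far below on array 2. The gap of 1.96 at the first probe compares with a median gap of 0.43 over 20655 probes above background. The mean Sox11 cKO ratios of -0.84 ± 1.38 and -0.58 ± 1.43 (SD, n = 2) were not called, with limma adjusted p of 0.847 and 0.918. Without Sox11 cKO replicate 1 the fitted value of the first was -2.25, after adjustment for dye, with an adjusted p of 0.00307 that rests on 1 array and the spread of the other genotypes. Without Sox11 cKO replicate 2 it was 0.56. In Sox4 cKO cells both probes were slightly below 0 on both arrays, with means of -0.27 and -0.18.

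*Rasgrp1* was set beside the other genes of its pathway. None of 9 other Ras activators was called in any genotype (0 of 9 at an adjusted p below 0.05), and their dcKO ratios lay between -0.14 and 0.25 with a median of 0.10. Among those above background, *Rasgrf2*, an exchange factor for RAS, was at 0.17 and *Rasgrp4*, a mast cell relative of *Rasgrp1*, at -0.14. Of 21 Ras proteins and members of the ERK cascade, 0 were called in any genotype, with a dcKO median of -0.18. The largest dcKO ratios there were -0.69 for *Rasa1*, which switches RAS off, and -0.58 for *Mras*, a RAS relative. Of 25 genes of diacylglycerol signalling, the input of RASGRP1, 1 was called in dcKO cells: *Prkd3*, protein kinase D3, fell by 1.53 ± 0.79 (log2, SD, n = 2; limma adjusted p = 0.0101). That call, beside 0.756% of all probes called, was lost without the replicate block, with an offset of 50, with processed signals and without either dcKO array. Below an adjusted p of 0.05 but within the fold threshold, *Dgkd*, a kinase that removes diacylglycerol, and *Prkcd*, a protein kinase C, were lower, at -0.87 and -0.77. *Prkca*, another protein kinase C, was higher, at 0.85. *Prkcd* and *Prkca* were named after their values were seen.

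Among genes that are known to be induced by ERK signalling, downstream of RAS, more than the background share fell in dcKO cells. The list was chosen with earlier results of these data known, so this share is a description and not independent evidence. Of 18 such genes, 10 passed an adjusted p below 0.05 in dcKO and all 10 fell, while 2.06% of all probes passed in either direction. Those called were 6, beside 0.444% of all probes called lower. *Etv5* fell by 2.72 ± 1.09 and *Etv4* fell by 2.61 ± 0.97 on the log2 scale (SD, n = 2), with limma adjusted p of 0.00314 and 0.00723. Both encode ETS transcription factors, and *Etv4* is on the study's own lists from these arrays, so it is not independent evidence. *Areg*, an EGF receptor ligand, fell by 2.12 ± 0.71, *Dusp6*, a phosphatase that inactivates ERK, fell by 2.11 ± 0.15, *Fosl1*, an AP-1 subunit, fell by 1.72 ± 0.27 and *Phlda1* fell by 1.54 ± 0.42 (SD, n = 2). Their limma adjusted p lay between 0.00334 and 0.0115. On both dcKO arrays 15 of the 18 were below 0, as were 28% of all probes, and 1 was above 0 on both, while the median of the list was -1.20. When dcKO replicate 1 or 2 was left out, 2 and 1 of the 18 passed. With an offset of 50, 2 passed, and with processed signals 0.

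The same genes stood otherwise in the single knockouts. In Sox4 cKO cells their median was 0.31, 13 of 18 were above 0 on both arrays beside 24.3% of all probes, and 1 passed an adjusted p below 0.05, *Fosl1*, at 1.24. In Sox11 cKO cells the median was -0.063 and 0 of the 18 passed, beside 0.124% of all probes. Summed wild-type signals of the list were 11962 to 20684 beside Sox4 cKO, 12625 to 29168 beside Sox11 cKO and 26674 to 27644 beside dcKO. The knockout sums were 18423 to 24883 in Sox4 cKO, 10475 to 24651 in Sox11 cKO and 7510 to 10015 in dcKO. The part of the wild-type levels in these ratios was not tested.

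**Figure D4:**
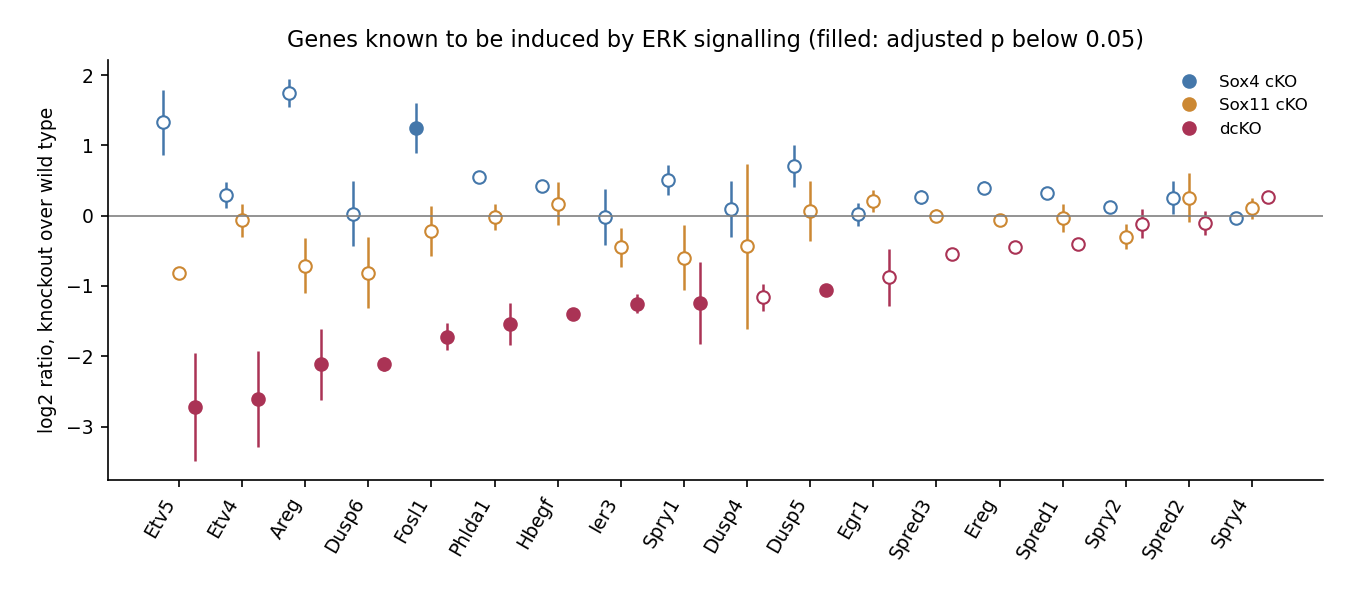
Log2 ratio of knockout over wild type (y axis) for 18 genes known to be induced by ERK signalling (x axis, ordered by the dcKO value) in the 3 genotypes, with points for the mean, lines over the 2 arrays and filled points at an adjusted p below 0.05. In dcKO cells 10 points are filled and all of them lie below 0, down to -2.72 for *Etv5*.

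Relatives of the other genes were not called in any genotype. Of 21 CAMTA and calmodulin pathway genes, 0 passed in dcKO, where the largest ratios were -1.25 for *Ppp3cb*, a calcineurin subunit (limma adjusted p = 0.113), and 0.97 for *Camk2d*, a calmodulin-dependent kinase (limma adjusted p = 0.0727). Of 9 chitinase family genes, 0 passed, with *Ctbs*, a lysosomal chitobiase, at 0.56 and *Chid1* at 0.47 in dcKO cells. Of 14 other *Slco* transporters, 0 passed. There *Slco1a5* had the largest dcKO ratio, 1.37 ± 1.01 (SD, n = 2; limma adjusted p = 0.0593), from 0.65 and 2.09, and *Slco2a1*, a prostaglandin transporter, was at -0.32. On both single-knockout genotypes *Slco1a5* was below 0, at -0.92 and -0.60. Dim family members limit these counts, since 4 of the 9 chitinase genes and 4 of the 14 transporters were above background in a channel of both dcKO arrays.

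The nearest genes with a probe on either side of each gene were read for comparison. *Fam98b* and *Gm13986*, on either side of *Rasgrp1*, had dcKO ratios of -0.024 and 0.28. *Vamp3* and *Dnajc11*, beside *Camta1*, were at -0.10 and -0.61. *Btg2* and *Chil1*, beside *Chit1*, were at -0.099 and -0.49, and *St8sia2* and *Sv2b*, beside *Slco3a1*, at -0.13 and -0.016. None of the 8 was called in any genotype, and *Gm13986*, *Chil1*, *St8sia2* and *Sv2b* were above background in no dcKO channel.

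For each gene, the named genes nearest to its 6 log2 ratios were sought by root mean square difference among 11205 or 11206 genes above background on every array. *Scd2*, a fatty acid desaturase, was nearest to *Rasgrp1* with a difference of 0.38, at ratios of 2.60 in dcKO, 1.45 in Sox11 cKO and 0.19 in Sox4 cKO. *Vsig8* and *Ces2f* followed at 0.64 and 0.68, where the median gene differed by 1.89. *Immp2l*, *Flrt3* and *Slc24a3* were nearest to *Camta1* at 0.30 to 0.39, *Ankrd24*, *Sema7a* and *Iqsec2* to *Chit1* at 0.19 to 0.22, and *Casq2*, *Zfp185* and *Lmo7* to *Slco3a1* at 0.20 to 0.33. With 6 arrays and this many genes, near matches arise for many patterns.

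Markers of cell types in which these genes are known were examined, because in bulk RNA fewer cells of a type and less RNA per cell cannot be told apart. Of 10 macrophage markers, 0 were called in any genotype and 4 were above background in dcKO, with a summed signal of 2107 to 2377 in dcKO and 2295 to 2329 in the wild-type channels beside it. *Adgre1*, *Lyz2*, *Mrc1*, *Cd163* and *Fcgr1* were above background in 0 of 12 channels. *Csf1r* and *Cd68* had dcKO ratios of 0.39 and 0.31, whereas the list's median was -0.081 and its lowest value -0.23, with 3 markers above and 4 below 0 on both arrays. Of 10 T cell markers, 0 were called, and *Cd3d*, *Cd3g*, *Cd2*, *Cd8a* and *Zap70* were above background in 0 of 12 channels. *Lck* and *Cd3e* were at -0.32 and 0.31 in dcKO, and the T cell sum was 1356 to 1432 in dcKO and 1286 to 1316 in wild type. *Cd3e* and *Cd4* of this list were above background in 12 of 12 channels, as were *Cd68*, *Csf1r*, *Itgam* and *Cd14* of the macrophage list.

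Other marker lists were read in the same way, beside the same shares of all probes called. Of 6 Langerhans cell markers, *H2-Ab1*, an MHC class II chain, rose in Sox4 cKO cells by 1.80 ± 0.06 (SD, n = 2; limma adjusted p = 0.0119), while *H2-Eb1* was at -0.051 there and *Cd207* above background in 0 of 12 channels. The *H2-Ab1* call was lost without either Sox4 cKO array, with an offset of 50 and with processed signals. In dcKO cells *H2-Ab1* was at 0.82 (limma adjusted p = 0.0446), within the fold threshold. None of 9 fibroblast and none of 6 melanocyte markers was called, with dcKO ratios of 0.43 for *Col1a2* and 0.78 and -0.64 for *Mitf* and *Mlana*. Of 6 basal and 10 differentiated keratinocyte markers, 0 were called in any genotype. Among those above background on both dcKO arrays, the largest basal ratios were -0.81 for *Itga6* and -0.50 for *Trp63*. The largest differentiation ratios among them were 1.25 for *Casp14* and -1.25 for *Lor*. Over the 10 differentiation markers the dcKO median was 0.21, with 5 above and 1 below 0 on both arrays. Of all probes, 27.5% were above and 28% below 0 on both. The summed signal of the differentiation markers was 2081 to 3142 in wild type beside dcKO and 8633 to 15168 beside Sox4 cKO, with 4020 to 13520 beside Sox11 cKO. *Cdsn*, corneodesmosin, singled out after its values were seen, made up much of these sums, with 524 to 1368 beside dcKO and 6166 to 12624 beside Sox4 cKO. Without it the other 9 markers summed to 1557 to 1774 beside dcKO, 2467 to 2544 beside Sox4 cKO and 1598 to 2780 beside Sox11 cKO. The *Camta1* wild-type signal was also lower beside dcKO than beside Sox4 cKO, and the part of these markers in it was not tested.

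**Figure D5:**
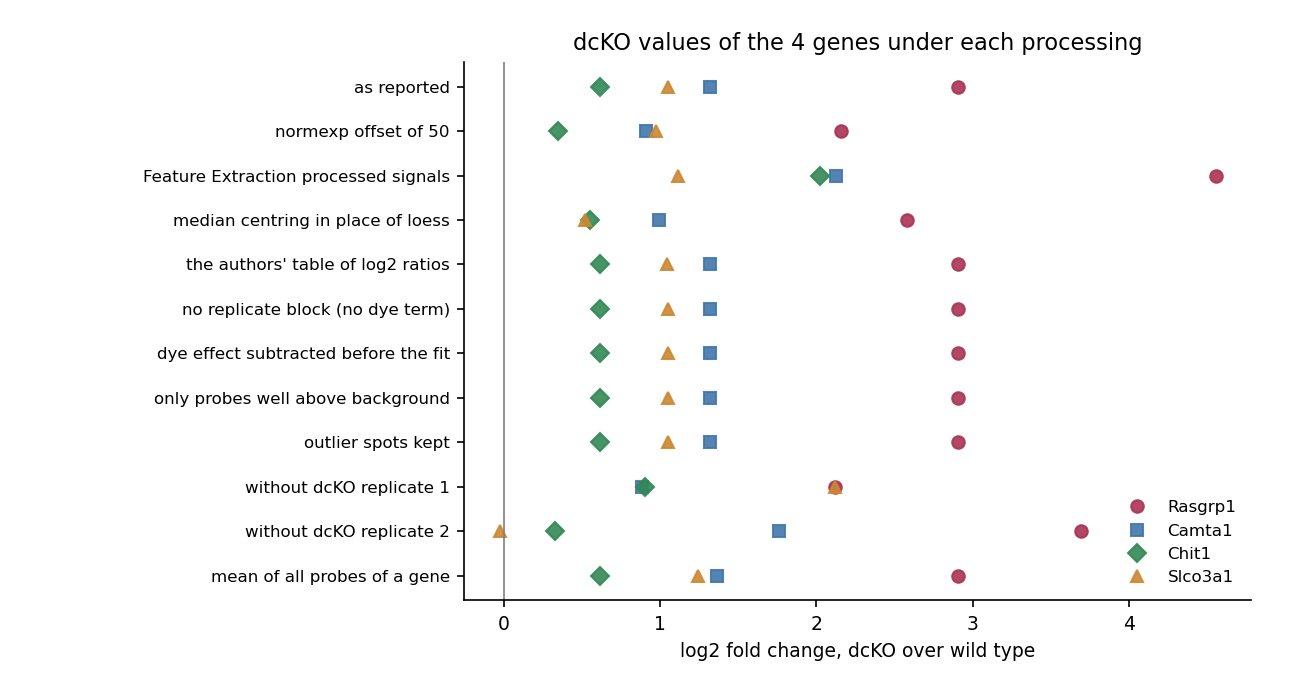
Log2 fold change of dcKO over wild type (x axis) for the brightest probe of each gene under each processing and without each dcKO array (y axis). *Rasgrp1* is the highest of the 4 under 11 of the 12 settings and level with *Slco3a1* at 2.12 without dcKO replicate 1. Without dcKO replicate 2 the dye-adjusted *Slco3a1* value falls to -0.025, where the remaining array read 0.37.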

How the data were processed

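The deposited scanner files hold linear spot intensity values for both channels, which the authors made with Agilent Feature Extraction 11.0.1.1 on an array designed on mm9. The deposited log10 ratio of red over green, which the authors' Feature Extraction run computed from processed signals, served to check directions. A deposited matrix of log2 ratios, normalised by the authors, ran in the knockout over wild-type direction on each of the 6 arrays when compared with the scanner values. Genotypes were taken from the sample titles. The members and all gene lists were chosen with earlier results of these data known.

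Median spot signals were corrected with limma's normexp at the offset of the study's methods, 16, in R 4.3.3 with limma 3.58.1. Control spots were then left out, outlier spots set to missing, loess applied within each array and spots of a probe averaged, which left 55681 probes. One linear model over all 6 arrays held a term for each genotype and a dye term (2 residual and 5.37 prior degrees of freedom), followed by eBayes and Benjamini-Hochberg adjustment over all probes. The thresholds, an adjusted p of 0.05 and a log2 fold change of 1.5, came from the study's methods. Several of its figure captions, for other arrays, give a fold change above 1.5 instead. The brightest probes of the 4 genes were at 7.50-fold (*Rasgrp1*), 2.50-fold (*Camta1*), 1.53-fold (*Chit1*) and 2.07-fold (*Slco3a1*) in dcKO cells. The levels of each channel followed loess and Aquantile scaling between arrays, and are open to dye bias within a single array. Where a gene was not above background on either array of one group, the fold is a bound: the bright group's mean log2 level against the dim group's, where each dim value is the higher of the probe's own and the lowest signal well above background on that array. Where the probe's own signal is the higher, the bound equals the fitted fold and is not a lower limit. Accessions were named through RefSeq tables of GRCm38.p6, which named 95.1% of 29786 probes with an accession. A gene of a list is read from its brightest probe. Genes were named if they were one of the 4 genes, a SoxC gene, a called member of a list, one of the 2 largest dcKO ratios above background in lists with fewer than 2 calls, a nearest neighbour, or one of the 3 nearest in pattern.

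The dyes followed the replicate number, so the dye term is also the replicate block. Deviations from the genotype means correlated at 0.125 to 0.316 between arrays of the same number, all above 0.1, so the numbers were treated as paired, though dye and pairing cannot be told apart. All arrays came from 1 slide and 1 scan. In simulated data for the dcKO comparison, 98% of 100 probes changed by 2 on the log2 scale were recovered. Of those changed by 3, 100% were recovered, with 9 false calls among 55681 probes. No smaller change is reported from the simulation. The shares therefore do not cover the dcKO means of *Camta1* (1.32), *Chit1* (0.61) and *Slco3a1* (1.05) at their brightest probes. The changed probes were drawn only from those well above background in all 6 wild-type channels. The *Rasgrp1* probe was not among these, so the shares do not cover it or other dim genes either. Precision is limited by having 2 arrays per genotype. Alternatives covered the offset, signals, normalisation, dye term, filters, probe choice, the authors' values and leaving out each array. The value of 1 list gene is not reported here.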

Additional observations from a re-analysis of the deposited data

Results flagged for a closer look

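In the wild-type channels of *Chit1* (probe A_55_P2129945) the log2 level on Sox11 cKO array 2, at 7.10, stood apart from the other 5, with a gap to the nearest of 0.704 of the whole range. About 1 in 20 such groups is marked by chance, and both ends of the 7 probes' wild-type levels were examined. The Sox11 cKO ratio of *Chit1* on that array, -1.01, has this channel as its denominator.

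Opposite signs in the dcKO and in a single knockout, on every array of both, marked 3 genes. The choice of genes had fixed the dcKO sign, so negative ratios on both arrays of a single knockout were enough. Of all probes, 24.5% had this for Sox4 cKO and 22.2% for Sox11 cKO. The differences were not tested, because the dcKO values chose the genes. For *Camta1* the dcKO mean exceeded the Sox4 cKO mean by 1.78 at A_55_P2023707 and 1.73 at A_51_P446796, and the Sox11 cKO mean by 2.49 and 2.74. The *Chit1* dcKO mean exceeded the Sox11 cKO mean by 1.32. For *Slco3a1* the dcKO mean exceeded the Sox4 cKO mean by 1.31 at A_55_P1989663 and 1.61 at A_66_P135106.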

How the results depend on the processing

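With an offset of 50 the dcKO ratios of *Rasgrp1* and *Chit1* were 2.16 and 0.35, the median of the 4 genes 0.94 and that of the ERK response genes -0.79, of which 2 were called and 2 passed the adjusted p. In dcKO, 1 SoxC gene was then called, and 0 in either single knockout, with 0 calls for diacylglycerol signalling and for Langerhans markers in Sox4 cKO. With the processed signals of Feature Extraction the dcKO ratios of *Rasgrp1*, *Camta1* and *Chit1* were 4.56, 2.12 and 2.03 and the median of the 4 genes 2.07, *Rasgrp1* in Sox4 cKO was -0.15, and the ERK medians were -1.59 in dcKO and 0.43 in Sox4 cKO. That setting called 0 probes in any genotype, so 0 in every list. With median centring in place of loess *Rasgrp1* in Sox4 cKO was -0.0084, the median of the 4 genes in dcKO 0.77, and the ERK medians -1.42 in dcKO and 0.0028 in Sox11 cKO. Single genes were then called for the CAMTA and differentiation lists in dcKO (1 each) and for ERK genes in Sox4 cKO (1), which the authors' table also called (1). Of all dcKO calls, 16.8% were then higher, against 41.3% as reported. The mean over all probes of a gene gave a dcKO median of 1.30.

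Without the replicate block, *Rasgrp1* in Sox11 cKO kept 1.07 with an adjusted p of 0.63, 7 ERK genes passed in dcKO, and 0 diacylglycerol genes in dcKO and 0 SoxC genes in Sox11 cKO were called. Subtracting the dye effect first, or testing only probes above background, also left 0 SoxC calls in Sox11 cKO. No call of the 4 genes changed with the block removed.

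Each array was left out in turn, which leaves 1 array in that genotype, with the spread and the dye term taken from the others. *Rasgrp1* in dcKO then ranged from 2.12 to 3.7, *Chit1* from 0.32 to 0.90 and *Slco3a1* from -0.025 to 2.12. In Sox4 cKO *Rasgrp1* ranged from -0.13 to 0.14 and *Slco3a1* from -0.60 to 0.069, and in Sox11 cKO from 0.42 to 1.72 and from -2.25 to 0.56. *Slco3a1* in Sox11 cKO minus Sox4 cKO ranged from -1.99 to 0.83, with an adjusted p of 0.0222 without Sox11 cKO replicate 1. The medians of the 4 genes ranged from 1.04 to 1.51 in dcKO, -0.37 to 0.11 in Sox4 cKO and -1.06 to -0.0064 in Sox11 cKO. Called ERK genes ranged from 1 to 6 in dcKO and 0 to 1 in Sox4 cKO, those lower with adjusted p below 0.05 from 1 to 12 in dcKO and 0 to 1 in Sox11 cKO, and the ERK median in Sox11 cKO from -0.27 to -0.063. SoxC calls ranged from 1 to 2 in dcKO and 0 to 1 in each single knockout. Every other list count that moved ranged from 0 to 1, except the CAMTA list in Sox11 cKO, from 0 to 2. Of 45 pairs of list and genotype, 28 had 0 calls under every setting. Against 421, 78 and 48 probes called in dcKO, Sox4 cKO and Sox11 cKO, an offset of 50 gave 78, 3 and 0, median centring 720 in dcKO, the authors' log2 ratios 122 and 94 in the single knockouts, no block 35 and 18, probes above background 24 and 26, and subtracting the dye effect 36 in Sox4 cKO. Without dcKO replicate 1 or 2, 125 and 121 were called in dcKO, and without Sox11 cKO replicate 1 or 2, 793 and 181 in Sox11 cKO. The 6 called between the single knockouts became 0 to 793. The probes called ranged over the settings from 0 to 720 in dcKO, 0 to 185 in Sox4 cKO and 0 to 793 in Sox11 cKO. The cause of these shifts was not tested.

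Mean spot signals and a slide block, both planned, were not run, since the signals used are medians and all arrays share a slide. *Chit1*, the second *Rasgrp1* probe and most family members were near background, which limits what their ratios can show. The same holds for *Camta1* in wild type on dcKO array 1 (A_55_P2023707) and in knockout on Sox11 cKO array 1. It also holds for the wild-type channels of the first *Rasgrp1* probe beside the single knockouts.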
